A study of Rattus norvegicus with 3 samples.

Results

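The genes described here are those of the pre-mRNA splicing machinery that the array names by family: spliceosomal small nuclear ribonucleoprotein (snRNP) proteins, SF3 subunits, PRPF, U2AF and LSm proteins and Magoh, taken as the core, and SR proteins, Tra2, SRRM, hnRNP, PTB, RBM, MBNL, CELF and ESRP proteins, taken as regulators. They were chosen by gene name, with earlier results of these data known, leaving out Snrpn. This gave 146 probes for 90 genes out of 41012 probes for 35529 genes, and 88 of the 90 genes could be measured. The samples were 3 of untreated rat iPS F65 cells (an induced pluripotent stem cell line), kept on a feeder layer of irradiated mouse embryonic fibroblasts. They were set against mix1, untreated adult rat cells that combined bone marrow cells with ear fibroblasts in primary culture. On each of 3 Agilent arrays, 1 iPS F65 sample in Cy3 and mix1 in Cy5 were hybridised together. iPS F65 is 1 line, mix1 is 1 control sample pooled from cells of different kinds, and mouse feeder cells shared the dish with the iPS cells. Nothing states whether the 3 iPS F65 samples were separate cultures, so p-values cover no more than the spread among them, which may be technical, and none of the spread of mix1. The dyes were never swapped, so dye and cell type cannot be told apart.

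Splicing removes introns through the stepwise assembly of the U1, U2 and U4/U6.U5 snRNPs on a pre-mRNA, each built from an RNA, a shared ring of Sm or LSm proteins and proteins of its own. SR proteins, mostly by binding exonic enhancers, and hnRNPs, often as silencers, then decide which splice sites are used. In mouse and human cells MBNL proteins are known to hold back the exon choices typical of pluripotent stem cells, while in mouse the SR protein Srsf3 is needed to form a blastocyst.

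Values are log2 ratios of the processed signal of iPS F65 over that of mix1. A gene was called higher or lower where limma gave an adjusted p under 0.05 and the change reached 2-fold. Of the 88 measured members 43 (48.9%) were higher in iPS F65 and 1 (1.14%) was lower, and 44 were neither. Among all 21784 genes tested 30.9% were higher and 24.5% were lower. The members' median was 0.98 and their ratios ran between -1.45 for Mbnl1 and 2.77 for Snrpe, against a median of 0.25 over all genes. Of the 88 members 78 lay above 0 and 71 above the median of all genes. On each array and in each channel all 88 stood well above background, so no ratio here is a bound. In total RNA from many cells, fewer cells of a type and less RNA per cell cannot be told apart. The members are bright genes, with 62 of 88 in the brightest of 4 equal bins of all genes. In that bin 35 of 62 members were higher, beside 27.4% of all genes there.

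The arrays agreed closely for these genes. The SD over the 3 arrays had a median of 0.021 for the members, between 0.00097 for Tra2b and 0.10 for Mbnl3, and of 0.043 for all genes. With so small a spread 83 of 88 members, and 20809 of 21784 genes, passed the adjusted p alone, so the 2-fold limit decided nearly every call. There were 14 members with a ratio between 0.8 and 1.2, close to that limit. Just inside it lay Rbm34 at 1.00, Srrm1 at 1.02 and Hnrnpa3 at 1.05, and just outside it Prpf19 and Lsm1 at 0.98 each and Snrpc at 0.92. Rbm34 was not called without the array of replicate 2 (0.99), and Prpf19 was called higher without that of replicate 3 (1.00).

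**Figure D1:**
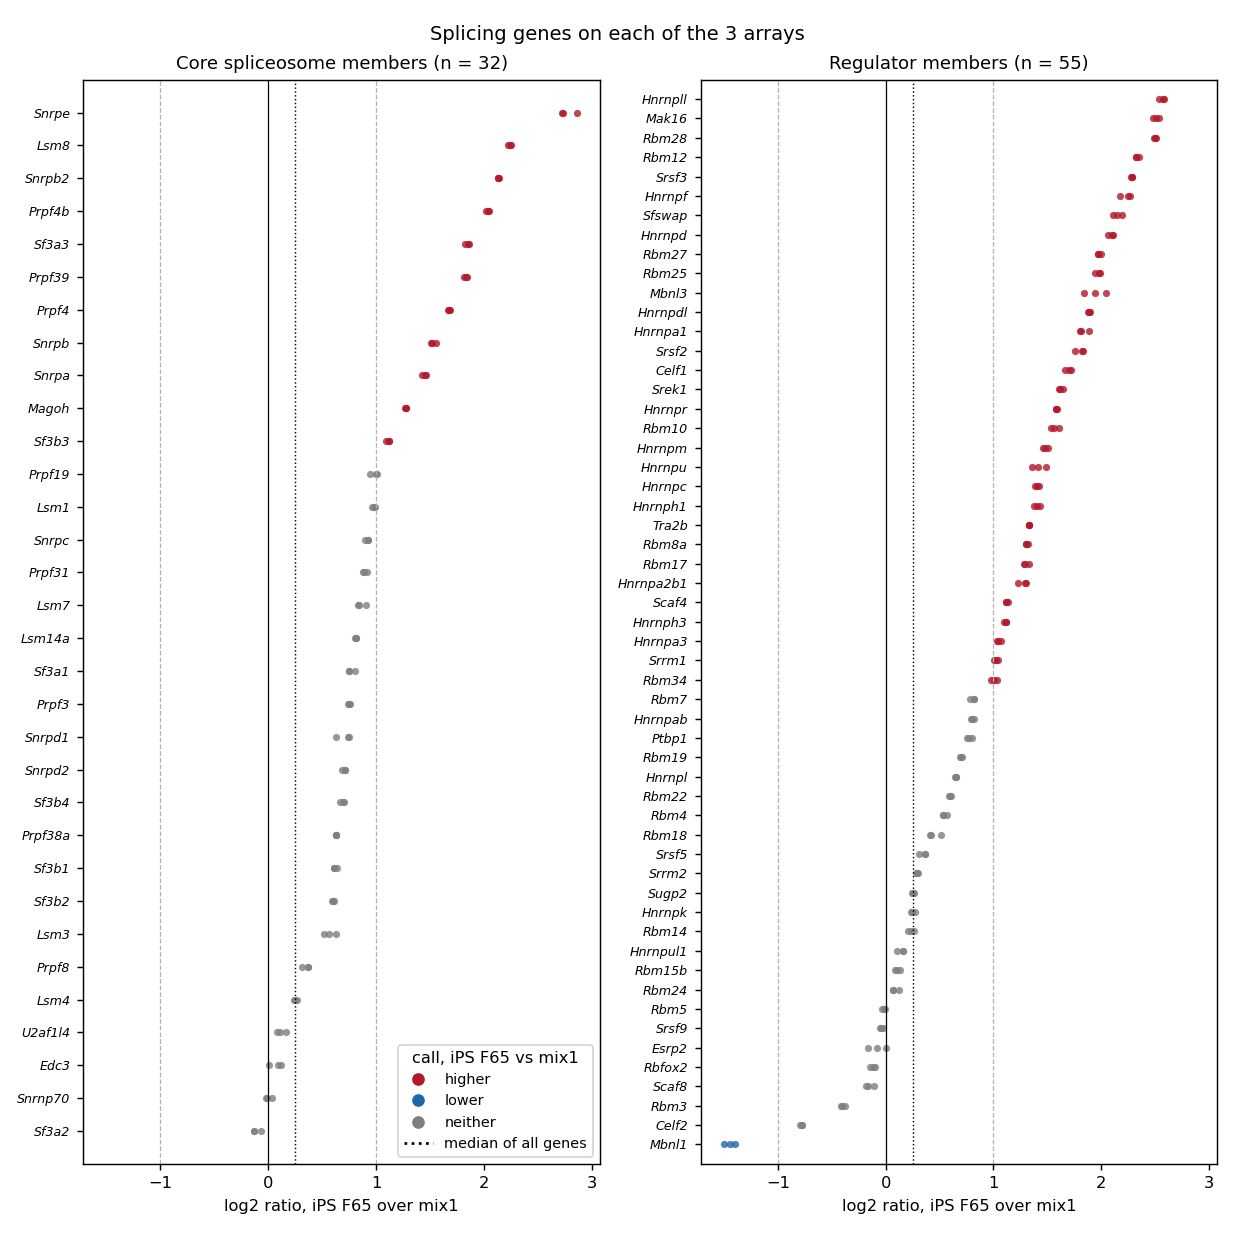
Log2 ratio of iPS F65 over mix1 on each of the 3 arrays (3 points per gene) for 32 core and 55 regulator members, sorted by mean, with the call by colour, dashed lines at a 2-fold change and a dotted line at the median of all genes (0.25). Core genes run between -0.11 and 2.77 with none called lower, and regulators between -1.45 and 2.56 with Mbnl1 alone called lower.

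The Sm proteins form the ring that is loaded on U1, U2, U4 and U5 RNA. Of the 4 measured, Snrpe (SmE) and Snrpb (SmB) were higher (50%, beside 30.9% of all genes), and Snrpd1 and Snrpd2 were at 0.71 and 0.70. With the brightest probe standing for each gene, Snrpe had the highest ratio of all members, whereas with the mean of a gene's probes Hnrnpll (3.15) and Prpf4b (2.99) stood above it. Its signals were 15813, 19074 and 18034 in iPS F65 on the arrays of replicates 1, 2 and 3, against 2176, 2866 and 2723 in mix1. The 2 channels did not overlap, and Snrpe was 6.84-fold higher (log2 ratio 2.77 ± 0.08, SD, n = 3, limma adjusted p = 1.2e-05). The array placed its only probe on chromosome X (build rn3, chrX:140439195-140439254, + strand), whereas RefSeq has the gene on chromosome 13 of GRCr8; whether it also reads a copy of the gene was not tested. Snrpb was 2.89-fold higher, with signals of 33447, 39390 and 39076 in iPS F65 against 11723, 13366 and 13620 in mix1 (1.53 ± 0.02).

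Snrpd1 (SmD1) has 3 probes on chromosome 18 of rn3, which gave different answers. The first 30 of the 60 bases of each probe are shown here, as the scanner files give them, to tell the probes apart, with that of Snrpe before them.
Snrpe: cctcgtattagatgatgcagaagaaattca
Snrpd1 probe 1: gtacagttggaaacattgagtattcgaggc
Snrpd1 probe 2: ggcgataatgtctctcaagattgctgtttc
Snrpd1 probe 3: caaattgaagttttagcggctactgtattc
Probe 1 lies at chr18:2007242-2007301, probe 2 at chr18:2011312-2011371 and probe 3 at chr18:2011440-2011499, all on the + strand. Which exon or UTR they lie in is not given, as no annotation of rn3 was used. Probe 2, the brightest and so the one that stands for the gene, gave 0.74, 0.75 and 0.63 on the 3 arrays. Probe 1 gave 1.92, 1.96 and 1.91. Probe 3, which starts 128 bases after probe 2, gave 1.92, 1.97 and 1.91. All 3 probes were above 0 on every array, and only probe 2 stayed short of a 2-fold change.

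The U1 snRNP recognises the 5′ splice site. Of its 3 measured proteins 1 was higher (33.3%, beside 30.9% of all genes). Snrpa, which binds a stem-loop of U1 RNA, had signals of 41126, 47606 and 47487 in iPS F65 against 14981, 17248 and 17692 in mix1, which is 2.73-fold higher (1.45 ± 0.02, adjusted p = 9.52e-06, limma). Snrpc, which steadies the pairing of U1 with the 5′ splice site, was at 0.92 ± 0.01, just under the limit. Snrnp70 (U1-70K) had 53143, 65465 and 64374 in iPS F65 against 53918, 64039 and 65065 in mix1, and these overlap (limma adjusted p = 0.943). Its other 2 probes gave 0.85 and 1.02, so the flat result holds for 1 of its 3 probes.

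The U2 snRNP, with the SF3A and SF3B complexes, binds the branch point. Of 8 measured genes 3 were higher and 0 lower by limma, with a median of 0.73, and 1 (Sf3a2) was below 0 at an unadjusted p under 0.05. The share higher was 37.5%, beside 30.9% of all genes. Snrpb2 (U2B″), the partner of U2 RNA that resembles Snrpa, was 4.39-fold higher. Its signals were 10464, 12702 and 12471 in iPS F65 against 2387, 2904 and 2818 in mix1 (2.14 ± 0.01, adjusted p = 5.98e-06, limma). Sf3a3 was 3.60-fold higher (1.85 ± 0.02) and Sf3b3 was 2.16-fold higher (1.11 ± 0.02). The subunits of SF3A thus had unequal ratios, with Sf3a1 at 0.77 and Sf3a2 at -0.11. In SF3B the branch point subunit Sf3b1 was at 0.62, Sf3b2 at 0.60 and Sf3b4 at 0.69, none of them called. The other probe of Sf3b2 gave 1.03 and was called higher.

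U2AF was represented by U2af1l4 alone, at 0.12 ± 0.04, since no probe on the array carries the name U2af1 or U2af2.

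LSm proteins build a nuclear ring on U6 RNA, with Lsm8, and a cytoplasmic ring of mRNA decapping, with Lsm1 in its place. Of 7 measured, Lsm8 alone was called (14.3% higher, beside 30.9% of all genes). Lsm8 had signals of 41171, 45986 and 47609 in iPS F65 against 8612, 9701 and 10182 in mix1. That is 4.73-fold higher with no overlap (2.24 ± 0.02, adjusted p = 6.11e-06, limma). Lsm1 had 5795, 6762 and 6922 in iPS F65 against 2927, 3409 and 3544 in mix1, also without overlap, but its ratio of 0.98 ± 0.01 fell just short of the limit. The subunits common to both rings were at 0.86 (Lsm7), 0.57 (Lsm3) and 0.25 (Lsm4). Lsm14a and Edc3, proteins of cytoplasmic mRNA repression and decay that carry LSm domains, were at 0.81 and 0.07.

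The U4/U6.U5 tri-snRNP brings the catalytic centre, and the name PRPF also covers proteins of other steps. Of 9 measured 4 were higher (44.4%, beside 30.9% of all genes), with a median of 0.98. Prpf4b, a protein kinase of the tri-snRNP, was the highest, with 13946, 16523 and 16193 in iPS F65 against 3403, 3995 and 3982 in mix1 (4.10-fold, 2.04 ± 0.01). A second, dim probe of Prpf4b, not above background in mix1, gave 3.94. Prpf39, a U1-associated protein, was 3.56-fold higher (1.83 ± 0.02), and the U4/U6 protein Prpf4 was 3.20-fold higher (1.68 ± 0.01). The U4/U6 proteins Prpf31 and Prpf3 were at 0.89 and 0.75, Prpf19, the ubiquitin ligase that names the Prp19 complex, at 0.98, and Prpf38a at 0.63. The other probe of Prpf38a gave 1.60 and was called higher.

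Prpf8, the U5 protein at the heart of the spliceosome, had signals of 58366, 71228 and 64767 in iPS F65 against 47103, 55075 and 50241 in mix1. Its ratio was 0.35 ± 0.03. A second probe, on the same strand and 8059 bases away in rn3, gave 1.41 ± 0.04, with 1.44, 1.43 and 1.36 on the 3 arrays. The first bases of both are shown because the call of this gene depends on which is read.
Prpf8 probe 1: tggtccaagcaaacagatgtgggcatcaca
Prpf8 probe 2: cgcactatgagagggttcagatgctcctgt
Probe 1 (chr10:62835935-62835994) is the one with the higher ratio, and probe 2 (chr10:62843994-62844053) is the brighter one used for the gene.

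Magoh and Rbm8a (Y14) form a heterodimer in the exon junction complex, which marks spliced mRNA. Both were higher, by nearly the same ratio. Magoh had 35616, 41188 and 40565 in iPS F65 against 14649, 16974 and 16837 in mix1 (2.42-fold, 1.28 ± 0.01). Rbm8a had 81380, 92852 and 93662 in iPS F65 against 32945, 37692 and 37548 in mix1 (2.48-fold, 1.31 ± 0.01). Another probe of Magoh, printed in several spots on each array, had an SD between its spots of 0.026 to 0.032 within an array.

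Of the 33 core genes measured, 12 were higher and none was lower, with a median of 0.86 and quartiles of 0.62 and 1.45. The 12 are 36.4% of the core, beside 30.9% of all genes called higher and 24.5% called lower. At an unadjusted p under 0.05 in limma, 1 core gene lay below 0, Sf3a2.

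SR proteins bind exonic enhancers and recruit U1 and U2AF. Of 9 measured SR, SR-related and Tra2 genes 6 were higher (66.7%, beside 30.9% of all genes), with a median of 1.33. None was lower by limma, beside 24.5% of all genes (0 also at an unadjusted p under 0.05). Srsf3, the SR protein with the highest ratio, had signals of 72693, 86948 and 82233 in iPS F65 against 14936, 17805 and 16952 in mix1. All values in iPS F65 lay far above those in mix1 (4.87-fold, 2.28 ± 0.005, adjusted p = 5.74e-06, limma). Srsf2 had 28325, 34031 and 32796 in iPS F65 against 8385, 9528 and 9287 in mix1 (3.49-fold, 1.80 ± 0.04). Tra2b, a splicing activator that binds GA-rich enhancers, was 2.52-fold higher at 1.33 on each of the 3 arrays. The SR-related Sfswap, whose fly relative regulates its own splicing, was at 2.15 ± 0.04, Srek1 at 1.62 ± 0.02 and Scaf4, which binds the tail of RNA polymerase II, at 1.12 ± 0.01. The other probe of Sfswap gave 0.75 and was not called, so the call of this gene depends on the probe.

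Not every SR protein was higher. Srsf9 had 24300, 27974 and 28166 in iPS F65 against 25265, 28530 and 28952 in mix1, which overlap across arrays (-0.04 ± 0.01, limma adjusted p = 0.0658). Within each array iPS F65 was slightly the lower, with ratios of -0.06, -0.03 and -0.04. Srsf5 was at 0.35 ± 0.03, and its 3 probes lay between 0.01 and 0.80, none of them called. Sugp2, an SR-related protein, was at 0.25. No probe carries the name Srsf1 or Tra2a. Of the serine- and arginine-rich matrix proteins, which bridge splicing factors, Srrm1 was 2.03-fold higher (1.02 ± 0.02) and Srrm2 was at 0.29 ± 0.01.

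**Figure D2:**
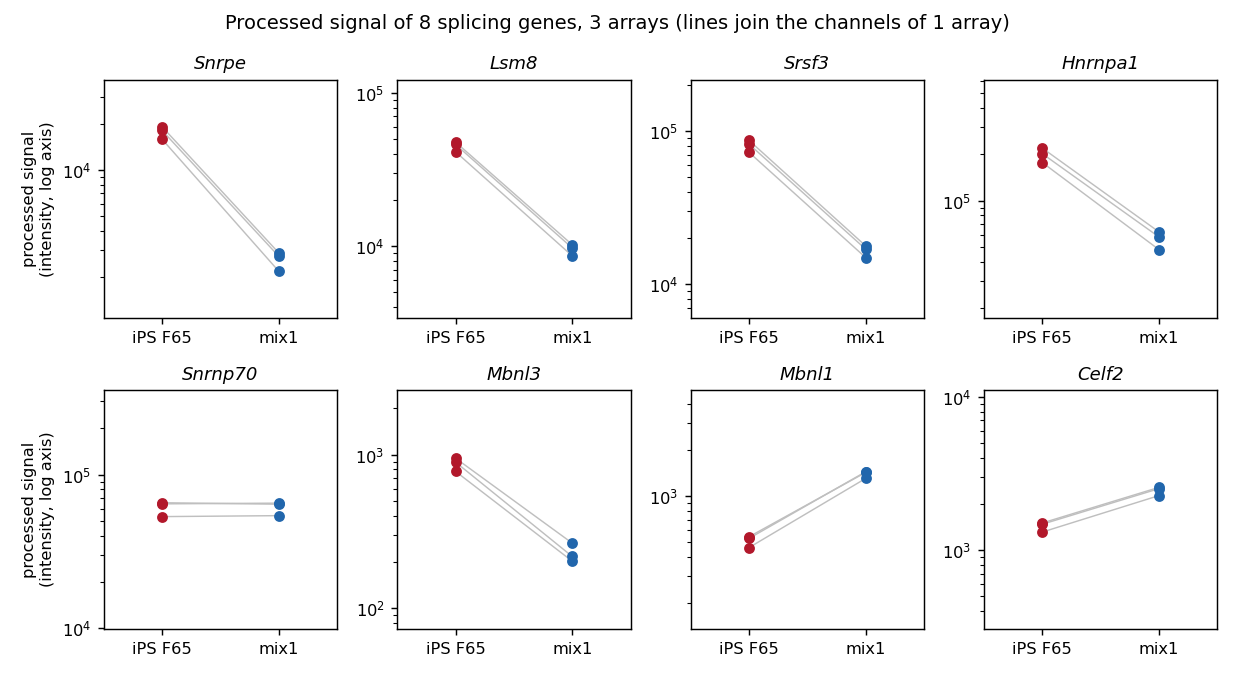
Processed signal (intensity, log axis) of 8 genes in iPS F65 (left, red) and mix1 (right, blue), with a grey line joining both channels of an array. Snrpe, Lsm8, Srsf3, Hnrnpa1 and Mbnl3 are higher in iPS F65 on all 3 arrays, Snrnp70 is level, and Mbnl1 and Celf2 are lower on all 3 arrays, of which Mbnl1 passed the 2-fold limit.

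The hnRNPs, which coat nascent transcripts, had the highest median of the families with at least 7 measured genes. Of 17 measured 13 were higher (76.5%, beside 30.9% of all genes), with a median of 1.40. None was lower by limma, beside 24.5% of all genes (0 also at an unadjusted p under 0.05), as all 17 lay above 0. After normexp background correction and loess scaling 2 of them, Hnrnpk and Hnrnpul1, lay at or below 0 (-0.00 and -0.22). Hnrnpll, known in mouse and human lymphocytes for silencing exons of CD45, was the highest. It had signals of 7219, 8531 and 8383 in iPS F65 against 1205, 1435 and 1442 in mix1 (5.92-fold, 2.56 ± 0.02, adjusted p = 6e-06, limma).

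Hnrnpf, which binds runs of G, had 95012, 127809 and 119604 in iPS F65 against 20981, 26536 and 25092 in mix1, which is 4.70-fold higher (2.23 ± 0.05). Its other probe, on the same strand and 925 bases away, gave 1.09, so both were called but differed by more than 2-fold from each other.
Hnrnpf probe 1 (1.09): cactgacctgtttgggagagacctcagcta
Hnrnpf probe 2 (2.23): aaagttagttttgagaattgagacacaata
The first 30 bases of each are shown, at chr4:154472141-154472200 and chr4:154473066-154473125 of rn3. The related Hnrnph1 was at 1.40 ± 0.03 and Hnrnph3 at 1.11 ± 0.01.

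Hnrnpd (AUF1), which binds AU-rich elements, was 4.26-fold higher, with 36133, 44767 and 44337 in iPS F65 against 8383, 10422 and 10584 in mix1. Its relatives Hnrnpdl and Hnrnpab were at 1.89 ± 0.01, called, and 0.81 ± 0.01, not called. Hnrnpa1, an exon silencer and the best known hnRNP, had 176829, 219615 and 201913 in iPS F65 against 47749, 62331 and 57772 in mix1 (3.57-fold, 1.84 ± 0.05). Its 4 probes ranged between 1.59 and 2.10, and all were called. Hnrnpa1 has many near-identical copies in the genome, and its values are uncertain to that extent. It and Hnrnpa2b1 are the 2 members with a probe that shares 30 bases with a probe of the same strand named for another record. A further 9 members share such a stretch with a probe of the opposite strand (Hnrnpd, Hnrnph1, Hnrnpr, Hnrnpu, Magoh, Rbm7, Snrpd1, Srrm2 and Sugp2). Hnrnpa2b1 was 2.42-fold and Hnrnpa3 2.07-fold higher (1.27 ± 0.04 and 1.05 ± 0.02), each with 1 probe below the limit (0.71 and 0.68).

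Hnrnpc, which competes with U2AF for uridine tracts, was 2.65-fold higher, with 118492, 137708 and 138026 in iPS F65 against 45311, 51327 and 52207 in mix1. Hnrnpr, Hnrnpm and Hnrnpu were at 1.58, 1.48 and 1.42. The hnRNPs that were not called were Hnrnpab, Hnrnpl (0.65), Hnrnpk and Hnrnpul1 (0.14). The other probes of Hnrnpab gave 1.26, called higher, and 0.13, not called. The other probe of Hnrnpl gave 1.55 and was called higher. Hnrnpk, which binds C-rich RNA, had 84933, 96672 and 93759 in iPS F65 against 70189, 82287 and 79271 in mix1, a ratio of 0.25 ± 0.02 that equals the median of all genes. Ptbp1, which silences exons of neurons in non-neuronal cells, had 117522, 140696 and 136277 in iPS F65 against 67416, 82303 and 80697 in mix1. That is 1.71-fold and was not called (0.78 ± 0.02). Ptbp2, its neuronal relative, has no probe of that name.

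The RBM name covers proteins joined by an RNA recognition motif and little else. Of 22 such genes 20 were measured and 8 were higher (40%, beside 30.9% of all genes), with a median of 0.65. Rbm11 and Rbm20, the regulator of titin splicing in heart, were not well above background in either channel. Rbm28 had 29601, 35453 and 34317 in iPS F65 against 5197, 6294 and 6059 in mix1 (5.66-fold, 2.50 ± 0.01). Mak16, named Rbm13 on the array, was at 2.51 ± 0.03 and 5.70-fold higher. Rbm12 was at 2.33 ± 0.02 and 5.03-fold higher.

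Several of the RBM genes are not known as splicing factors. Rbm28, Rbm34, Rbm19 and Mak16 act in the nucleolus or in making ribosomes, on evidence from human cells or yeast. Of these Rbm19 was not called (0.70), and Rbm34 gave 1.00 and 2.96 with its 2 probes. Rbm7, of the nuclear exosome targeting complex, was at 0.81, and Rbm15b, a cofactor of mRNA methylation, at 0.11. The other probe of Rbm7 gave 1.02 and was called higher. Among RBM genes with a known part in splicing, Rbm25 (1.97 ± 0.03), Rbm10 (1.57 ± 0.04) and Rbm17 (SPF45, 1.30 ± 0.03) were higher. Rbm22, at the catalytic centre, was at 0.60, Rbm4 at 0.54 and Rbm5 at -0.02, none of them called. Rbm27 was at 1.98, Rbm18 at 0.45 and Rbm14, a paraspeckle protein, at 0.23. The other probe of Rbm14 gave 1.06 and was called higher.

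Rbm3, induced by cold, had 15004, 16946 and 16780 in iPS F65 against 19992, 22036 and 22227 in mix1. These do not overlap, but the ratio of -0.40 ± 0.02 was not called. Rbm24, a splicing regulator of heart and muscle, had 586, 653 and 669 in iPS F65 against 559, 623 and 613 in mix1 (0.09 ± 0.03). Rbfox2 (Rbm9 on the array), needed for the survival of human embryonic stem cells, had 819, 1033 and 969 in iPS F65 against 878, 1119 and 1071 in mix1. Its ratio of -0.12 ± 0.02 and that of Scaf8 (-0.15 ± 0.04), named Rbm16 on the array, were not called.

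The muscleblind-like genes went opposite ways. Mbnl1, the only member called lower, had 461, 542 and 529 in iPS F65 against 1304, 1427 and 1442 in mix1. No value in iPS F65 reached those of mix1 (2.73-fold higher in mix1, log2 ratio -1.45 ± 0.05, adjusted p = 2.33e-05, limma). A second probe gave -1.82, -1.80 and -1.81 on the 3 arrays, so both probes were called lower. The first bases of both are shown as the probes of the only gene called lower.
Mbnl1 probe 1 (-1.81): ctggttccagcagagatcttgccgactgca
Mbnl1 probe 2 (-1.45): tttgctcatcctgctgacagcacaatgatt
They lie at chr2:149932882-149932941 and chr2:149942294-149942353 of rn3, + strand. Mbnl3 had 777, 893 and 947 in iPS F65 against 202, 216 and 264 in mix1, which is 3.85-fold higher (1.94 ± 0.10, adjusted p = 4.36e-05, limma). Mbnl2 has no probe of that name.

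The 2 CELF genes, whose proteins act against MBNL proteins on many exons, lay on opposite sides of 0. Celf1 had 1819, 1969 and 2054 in iPS F65 against 552, 619 and 633 in mix1 (3.24-fold higher, 1.70 ± 0.03), and its other probe gave 1.12. Celf2 had 1309, 1472 and 1500 in iPS F65 against 2264, 2514 and 2562 in mix1. It was lower on every array but within 2-fold (-0.78 ± 0.01), and was called lower after loess (-1.17). Esrp2, an epithelial splicing regulator, had 326, 300 and 284 in iPS F65 against 364, 317 and 283 in mix1, which overlap (-0.08 ± 0.08, limma adjusted p = 0.146). Esrp1 has no probe of that name. The epithelial marker list, of which 8 of 10 were measured, had 5 higher and 2 lower in iPS F65. These are 62.5% and 25%, beside 30.9% and 24.5% of all genes. In this list Cdh1, Epcam and Krt19 were not above background in mix1. Its summed signal was 5278 to 6028 in iPS F65 and 1051 to 1284 in mix1, and its part in the ratio of Esrp2 was not tested.

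Of the 55 regulators measured, 31 were higher and 1 was lower, with a median of 1.11 and quartiles of 0.27 and 1.75. These are 56.4% and 1.82%, beside 30.9% and 24.5% of all genes. The core, with 12 of 33 higher, had its ratios closer together. Within the regulators the 17 hnRNPs had a median of 1.40 and the 9 SR and Tra2 genes of 1.33. The 20 RBM genes had a median of 0.65, below the 0.86 of the core. Mak16, Rbm28, Rbm34 and Rbm19, of the nucleolus or ribosome making, were counted as regulators. The median of the core minus that of the regulators was -0.26, -0.21 and -0.28 on the 3 arrays (mean -0.25 ± 0.04, SD, n = 3). This is a description without a test, since 3 arrays cannot give a two-sided exact p below 0.25 and genes are not replicates. The value was unchanged with the 4 spliceosome-bound RBM and SRRM genes moved to the core and Lsm1 and Lsm14a left out (-0.25). Of the moved genes Rbm8a (1.31) and Rbm17 (1.30) lay above both medians, and Rbm22 (0.60) and Srrm2 (0.29) below both. Lsm1 (0.98) and Lsm14a (0.81) lay on either side of the core median. Each median thus stayed at the same gene, so this split could not move the value. Edc3 stayed in the core in that split. The sign of the difference was the same after normexp and loess (-0.35). Of the regulators 47 of 55 lay above 0, and of the core 31 of 33.

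**Figure D3:**
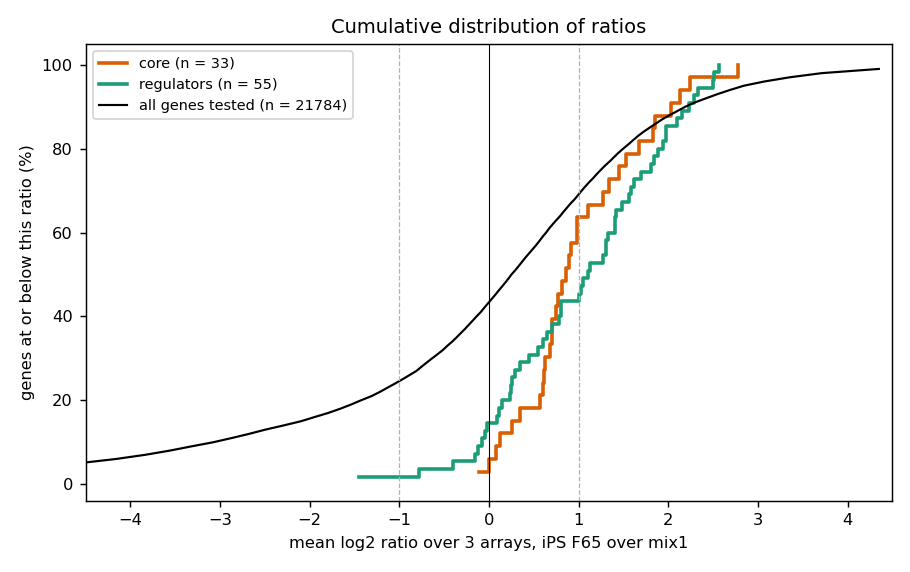
Percentage of genes (vertical axis) at or below each mean log2 ratio of iPS F65 over mix1 (horizontal axis) for 33 core genes, 55 regulators and all 21784 genes tested, with dashed lines at a 2-fold change. The core curve is the steepest, with quartiles of 0.62 and 1.45, the regulators are wider at 0.27 and 1.75, and all genes are widest at -0.97 and 1.25.

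Where a gene had several probes, they served as a second reading of it. There were 46 such genes with 102 tested probes. In 22 all probes were called higher, in 12 some but not all, in 11 none, and in 1 (Mbnl1) all were called lower, and no gene had probes called in opposite directions. Probes of a gene differed by a median of 0.42 and at most 1.96 (Rbm34), so the choice of probe moved a ratio far more than the array did. The range passed 1 in 9 genes. In Prpf4b and Hnrnpll the other probe was not above background in mix1 on any array, so their ranges are not exact. The remaining 7 were Rbm34, Sfswap, Snrpd1, Hnrnpf, Hnrnpab, Prpf8 and Snrnp70. In 4 of these 7 the brightest probe, which stood for the gene, had the lowest ratio, and in 2 the highest. Over the 43 genes with several probes above background in both channels the median range was 0.42. Counted by probe, 80 of 144 member probes were higher and 2 lower, where 31.2% of all probes were higher and 24.1% lower.

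**Figure D4:**
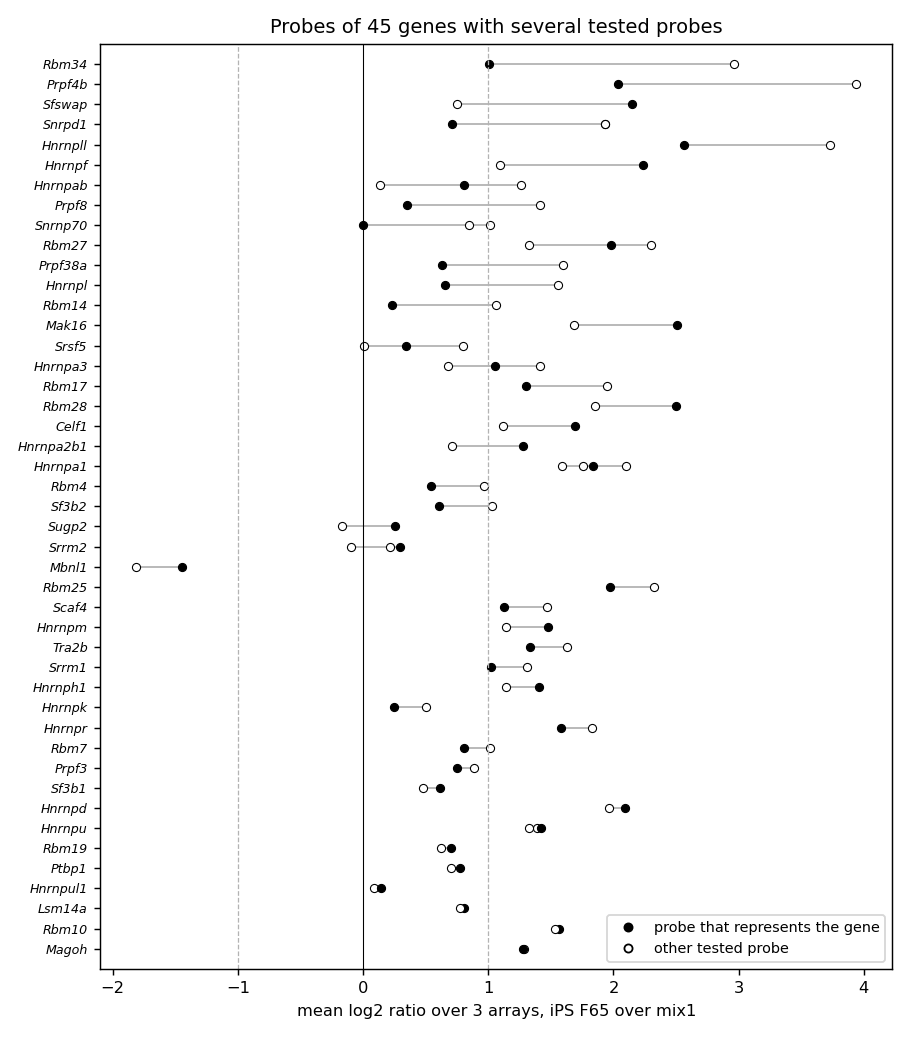
Mean log2 ratio of iPS F65 over mix1 (horizontal axis) of each tested probe for 45 genes with several probes, sorted by their range; filled points are the brightest probe, which stands for the gene, and open points the others. Magoh and Rbm10 have probes that nearly coincide, while the probes of Rbm34 span 1.00 to 2.96.

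The ratios were centred elsewhere under other processing of the signals. With normexp background correction and loess in place of the scanner software's processing, the median of all genes was -0.08 in place of 0.25, and 18.3% of genes were higher and 26.1% lower. The members' median was then 0.58, with 36 higher and 2 lower. Relative to all genes the members stood 0.73 higher with the processed signals and 0.66 higher with loess. The 36 were all among the 43. The 7 that lost the call were Sf3b3, Scaf4, Srrm1, Hnrnpa2b1, Hnrnpa3, Hnrnph3 and Rbm34, and Celf2 joined Mbnl1 as lower. No called member changed sign, but 9 that were not called, with ratios between 0.07 and 0.29, lay below 0 with loess. With each array's median set to 0, 37 members were higher and 2 lower, beside 24.9% and 28.1% of all genes.

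**Figure D5:**
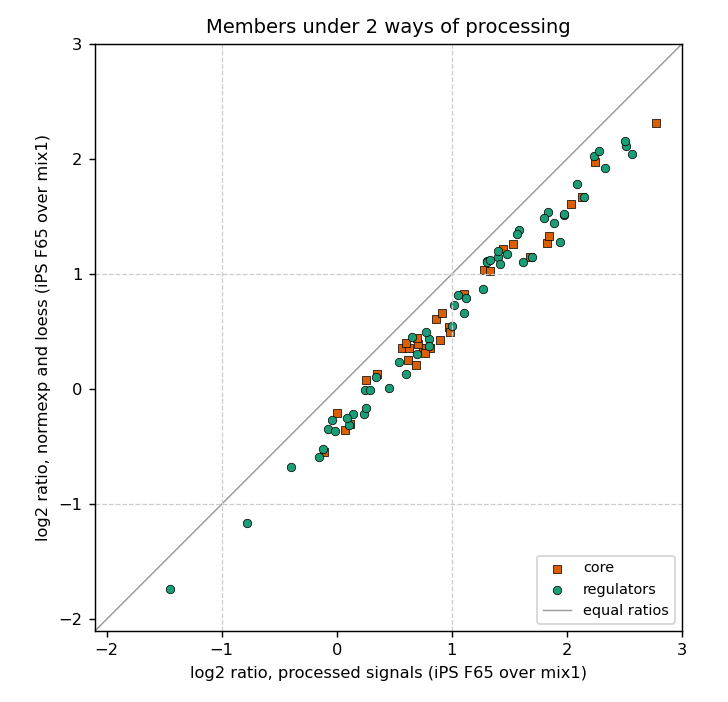
Mean log2 ratio of iPS F65 over mix1 of each member with the processed signals (horizontal axis) and with normexp and loess (vertical axis), with dashed lines at a 2-fold change and a grey line where both are equal. All 88 points lie below the grey line.

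A list of 141 further splicing genes outside the name rule was read beside the members. It was put together with results of these data known and is no independent evidence. Of 121 measured, 65 were higher and 1 was lower, with a median of 1.09. These are 53.7% and 0.83%, beside 30.9% and 24.5% of all genes. The snRNP assembly factors had 10 of 11 higher (90.9%, median 1.69). Among them were Smn1, the core of the SMN complex that loads Sm rings (1.98), and its partner Gemin2 (1.90). Clns1a and Wdr77 of the complex that methylates Sm proteins were also higher (2.17 and 2.04). Of the other snRNP and Prp19 complex proteins 21 of 46 were higher (45.7%), and of the minor spliceosome 3 of 6 (50%). Of exon junction, export and cap-binding proteins 7 of 12 were higher (58.3%). None in these 4 lists was lower by limma, and at an unadjusted p under 0.05 the number below 0 was 0 for assembly, 4 for snRNP and Prp19 complex proteins, 1 for the minor spliceosome and 0 for exon junction and export. Of 7 SR protein kinases Srpk1 alone was higher (1.83), which is 14.3%, beside 30.9% of all genes. Srpk2 was at 0.13 and Clk1 at -0.08.

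Other RNA-binding regulators had 23 of 39 higher and 1 lower (59.0% and 2.56%, beside 30.9% and 24.5% of all genes). Of the 4 with the highest ratios, Elavl2, an RNA-binding protein of neurons, was at 5.49 ± 0.08 and Khdrbs3, a splicing regulator related to Sam68, at 2.82 ± 0.01. Nova1, a splicing regulator of neurons that was not above background in mix1 on any array, was at least 7.58-fold higher. Khdrbs2 gave 4.15, 4.46 and 1.25 on the 3 arrays. It was above background in mix1 on 1 of them, so its ratio is not exact, and it lost its call without replicate 1 (2.85) or replicate 2 (2.70). The one called lower was Cirbp, a cold-induced RNA-binding protein like Rbm3, at -1.71 ± 0.05. Of the neuron marker list 6 of 7 measured genes were higher (85.7%, beside 30.9% of all genes), with a median of 2.55. Elavl3 and Map2 were not above background in mix1. The summed signal of the list was 53997 to 62418 in iPS F65 against 14220 to 16699 in mix1. The part of this list in the result was not tested.

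Markers of the cells compared also differed between iPS F65 and mix1. Their counts stand beside 30.9% of all genes higher and 24.5% lower. The dividing-cell list (among others Mki67, Top2a and Mcm genes) had 11 of 12 higher, with a median of 1.72 and a summed signal of 385499 to 457296 in iPS F65 against 137840 to 163269 in mix1. All 10 fibroblast markers were lower, with a summed signal of 7834 to 10804 in iPS F65 against 1757450 to 2282020 in mix1, and Postn and Thy1 not above background in iPS F65. Of 9 myeloid markers measured 8 were lower, and of 7 pluripotency markers 5 were higher and 1 lower, with Pou5f1 not above background in mix1. The part of cell division, of the cells in mix1 and of RNA from the mouse feeder cells in the members' ratios was not tested.

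The sequence just before the start of a gene was read from RefSeq promoters of the build GRCr8, which 76 of the 90 members matched, with 82 promoters. The 150 bases before the start are printed, 5′ to 3′ on the strand of the gene, for the 4 highest members with a single promoter entry and for Mbnl1, the one called lower. Capitals mark matches, on either strand, to CCAAT (bound by NF-Y), CCGGAAG (ETS factors), GCATGCG (the middle of the NRF1 motif), CACGTG (the E-box of Myc and Max), TATAAA (the TATA box) or GGGCGG (Sp1).
Snrpe: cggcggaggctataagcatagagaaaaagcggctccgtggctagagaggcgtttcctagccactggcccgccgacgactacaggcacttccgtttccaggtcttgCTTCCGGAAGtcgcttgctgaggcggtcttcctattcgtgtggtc
Rbm28: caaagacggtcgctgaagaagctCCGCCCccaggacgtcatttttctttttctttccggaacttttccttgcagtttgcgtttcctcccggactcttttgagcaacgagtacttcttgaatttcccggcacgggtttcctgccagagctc
Srsf3: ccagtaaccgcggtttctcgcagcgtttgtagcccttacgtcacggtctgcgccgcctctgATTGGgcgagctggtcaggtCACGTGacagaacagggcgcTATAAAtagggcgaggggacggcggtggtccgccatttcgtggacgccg
Lsm8: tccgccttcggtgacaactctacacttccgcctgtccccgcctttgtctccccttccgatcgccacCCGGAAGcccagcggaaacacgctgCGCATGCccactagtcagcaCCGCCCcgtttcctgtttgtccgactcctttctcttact
Mbnl1: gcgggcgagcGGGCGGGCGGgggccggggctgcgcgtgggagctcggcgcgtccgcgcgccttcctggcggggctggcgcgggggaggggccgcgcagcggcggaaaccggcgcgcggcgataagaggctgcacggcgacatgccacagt
The stretch of Snrpe (chr13:47609252-47609401, - strand) holds the ETS motif on both strands, overlapping. That of Rbm28 (chr4:58726969-58727118, - strand) holds the Sp1 motif once. Srsf3 (chr20:7093435-7093584, + strand) has the NF-Y motif, the E-box and the TATA box in that order toward its start. Lsm8 (chr4:48271978-48272127, + strand) has the ETS, NRF1 and Sp1 motifs in that order, and Mbnl1 (chr2:146819884-146820033, + strand), the richest in G and C at 81.3%, has 2 overlapping Sp1 motifs.

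Over the 250 bases before the start, CCGGAAG was in 19 of 82 member promoters (23.2%) and in 7.27% of all 33469 promoters in the table. GCATGCG was in 11.0% of the members' and 2.93% of all, GGGCGG in 41 of 82 and 30.5%, and CCAAT in 42.7% and 34.0%. CACGTG was in 9.76% of the members' and 5.59% of all, and TATAAA in 8.54% and 12.9%. In 1 member promoter CCGGAAG and GGGCGG overlapped, and no other pair of different motifs did. The members' promoters were also richer in G and C, with a median of 58.6% against 51.2% for all, and the full table holds many predicted and noncoding genes. Of the 45 promoters of higher members 51.1% held the NF-Y motif, 28.9% the ETS, 8.89% the NRF1 and 53.3% the Sp1 motif, 11.1% the E-box and 11.1% the TATA box. Of the 36 promoters of members that were neither, 33.3% held the NF-Y motif, 16.7% the ETS, 13.9% the NRF1 and 44.4% the Sp1 motif, 8.33% the E-box and 5.56% the TATA box. The NRF1 motif was thus the one less frequent among the higher members, and none of these shares was tested. A match is a description of letters, not a site in use.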

How the data were processed

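Agilent Feature Extraction 9.5.3.1 made the deposited scanner files, per the file headers. They hold an intensity for each spot and channel, raw and, per the file headers, as a processed signal after background subtraction and a linear and LOWESS scaling of the dyes. The authors' deposited table of log2 values was log2 of the Cy3 over the Cy5 processed signal to within 3.1e-06, so their scale, direction and centring are known, and they were used as an alternative. As 1 slide and 1 scan held all 3 arrays, there was no batch to test.

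The log2 ratio of processed signals was the value tested. Control spots and outlier flags were left out, spots of a probe were averaged, and a probe was tested if well above background on all 3 arrays in either channel. The brightest tested probe stood for a gene. The test, of the mean against 0, was limma's lmFit and eBayes (version 3.58.1, under R 4.3.3), with Benjamini-Hochberg adjustment over all 21784 genes. Precision is limited by the number of arrays, 3. Between 57.1% and 61.2% of gene spots were well above background in iPS F65 and 58.3% to 62.1% in mix1. For Nova1, Rbm43 and Srsf12, a bound was set against the lowest level above background in the dim channel. Symbols were updated through RefSeq (GRCr8), which renamed 36 of the 90 genes. Core members are those named Sf3a, Sf3b, Snrp, Prpf, U2af, Lsm or Magoh. One member is counted in the totals but not reported here by name or drawn by name. Members, lists and classes were chosen with earlier results of these data known. Genes were named by role class (the highest and lowest), by size among those called, or from a fixed list, and other members were added to account for each family.

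Alternatives were normexp with an offset of 50 and loess, loess without background subtraction, median-centred arrays, other filters on dim probes, the mean of a gene's probes, limma's treat, the series matrix, another division of core and regulators, and leaving out each array.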

Additional observations from a re-analysis of the deposited data

How the results depend on the processing

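The members' count of higher genes lay between 36 and 45 under all 11 alternatives and between 42 and 44 with 1 array left out. No called member changed sign under any of the 11, while 9 uncalled ones near 0 did after normexp and loess, 9 after loess alone and 8 with median-centred arrays. The count of lower members was 2 after normexp and loess, after loess without background subtraction and with median-centred arrays, against 1, and so was that of lower regulators (2, 2 and 2). Lower genes among the other splicing genes numbered 2 after normexp and loess, 2 after loess alone and 2 with no filter on dim probes, against 1. Genes higher over the whole array numbered 3980 after normexp and loess and 3975 after loess without background subtraction, against 6728, and genes lower were 3231 with both channels required above background, against 5334. The median of all genes, 0.25, was -0.079 after normexp and loess, -0.074 after loess alone, -0.0014 with median-centred arrays and -0.020 with no filter on dim probes. The median of the core minus that of the regulators was -0.35 after normexp and loess, -0.35 after loess alone and -0.19 with no filter, against -0.25. Requiring both channels left out probes that were well above background on all 3 arrays in only 1 channel. Of the 21784 genes tested, 19382 were above background on all arrays in iPS F65 and 19635 in mix1. The cause of these moves was not tested. The test used the ratio within each array, which pairs 1 iPS F65 sample with mix1. No other pairing was possible because all 3 samples belong to 1 group, each measured against the same mix1. Without a dye swap or a second control, neither the dyes nor the spread of mix1 can be assessed.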

Other observations

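The array also holds 28 genes whose present symbol belongs to these families but whose name on the array does not, and which are therefore not among the members. Of 22 measured, 10 were higher, 3 were lower and 9 were neither, with a median log2 ratio of 0.88. Over all genes 30.9% were higher and 24.5% lower. Of the 88 measured members, chosen by their name on the array, 43 were higher and 1 lower. The small number of lower members thus holds for genes chosen by that name. Srsf10, a splicing repressor of the SR family, was at 1.18, Rbm38, which binds AU-rich RNA, at 1.13, and Celf4, a CELF protein of neurons, at 1.35, and these 3 calls were lost after normexp and loess. Of the 3 lower genes, Celf5 was at -1.23 ± 0.05. Rbm43 and Srsf12 were not well above background in iPS F65 on any array, so they have only bounds, at least 4.67-fold lower for Rbm43 and at least 1.5-fold lower for Srsf12. The bound of Srsf12 is short of a 2-fold change, and its call was lost after normexp and loess. Prpf6 and Ptbp3, the PTB protein of blood cells, were at -0.08 and 0.22. Rbm47 and Celf6 were not well above background in either channel. These genes were named after their values were seen.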
